A study of Mus musculus with 8 samples.

Results

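Acute undifferentiated leukaemia (AUL) and T-cell acute lymphoblastic leukaemia (T-ALL), both GFP+ and both from the bone marrow of C57BL/6 mice with N-Myc overexpression, were compared by poly(A) RNA-seq. The AUL cells were sorted as negative for B220, CD3, Mac1 and Gr1, and the T-ALL cells as CD3+. Both labels give an age of 8 to 10 weeks and 2000000 sorted cells. What drives N-Myc, how many animals each library holds and the sex of the animals are not given in the labels. The series also holds B-ALL and AML libraries and 4 libraries of normal marrow cells (T, B, myeloid and lineage-negative), which are used here only to place the values. Genes were members of the comparison when their FPKM (fragment count scaled by transcript length and library total) was at least 1 in AUL or in T-ALL. This held for 9693 of the 16434 genes listed. Of these, 8022 reached 1 in both leukaemias, 709 in AUL alone and 962 in T-ALL alone. The gene at the edge on the inside was Dok7, whose higher FPKM was 1.001, and the gene at the edge on the outside was Gm16556, at 0.99994. A difference is AUL minus T-ALL in log2(FPKM + 1), which understates the change of genes with low FPKM, and a gene was counted as higher or lower when the difference was at least 1 in size, that is 2-fold on this scale. With 1 library on each side no comparison here has a replicate check, so no p-value is given. Intervals are 95% intervals for the ratio of 2 fragment counts and cover counting error only.

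T cells recognise antigen through a receptor whose variable chains (alpha with beta, or gamma with delta) are assembled in the thymus by joining V, D and J gene segments. The variable chains are carried to the surface by the CD3 chains and CD247, and the kinases Lck and Zap70 pass the signal on. T-ALL arises from developing T cells that have passed part of this programme. A leukaemia is called undifferentiated when it shows no surface antigen that would place it in a lineage. MYC proteins such as N-Myc drive genes for ribosome assembly, nucleotide supply and cell division.

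The recovered library totals were 33818614 fragments in AUL and 43206606 in T-ALL. At the median gene length of 1512 bases, an FPKM of 1 rested on 51.1 fragments in AUL (95% Poisson interval 0.742 to 1.31 FPKM) and on 65.3 in T-ALL (0.768 to 1.27 FPKM). Mycn, the gene for N-Myc, had an FPKM of 719 in AUL and 843 in T-ALL, while the 4 normal libraries held 0.518 to 5.24. Myc was at 0.907 in AUL and 0.874 in T-ALL and so was no member. The AUL label rests on surface antigens, and RNA cannot be set directly against it. RNA of T-cell receptor complex genes was nonetheless present in AUL, for most of them under 2-fold from T-ALL, as described next. AUL is therefore used as the name of the library and says nothing here of lineage. Among genes of the other gate antigens, Itgam (Mac1) and Ly6g (part of the Gr1 antigen) were low in both leukaemias. Itgam had 3.06 FPKM in AUL and 3.30 in T-ALL, against 208 in normal myeloid cells. Ly6g had 5.92 in AUL and 4.53 in T-ALL, against 798 in normal myeloid cells. Ly6g does not stand for the whole Gr1 antigen. Ly6c2, a gene of the same family given below with the monocyte markers, was higher in AUL. B220 is an isoform of the Ptprc product and cannot be read from a gene total. Neutrophil genes were present in both libraries, with S100a8 at 640 FPKM in AUL and 392 in T-ALL, and the sum of the 13 neutrophil markers was 2452 in AUL and 1811 in T-ALL, against 194200 in normal myeloid cells.

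The antigen that separates the gates is CD3, and the antibody that the labels name binds its epsilon chain. The sequences from 250 bases before to 50 bases after the RefSeq gene starts of the 3 CD3 genes (GRCm38.p6) are shown because these genes carry the antigen of the gate and were transcribed in both leukaemias. They lie next to each other on chromosome 9: Cd3d on the plus strand (chr9:44981536-44981835), Cd3g on the minus strand (chr9:44980382-44980681) and Cd3e on the minus strand (chr9:45009562-45009861). Capitals mark the ETS-type motif AGGAAG in Cd3d and Cd3e and the GATA-type motif AGATAA in Cd3g, on either strand.
Cd3d: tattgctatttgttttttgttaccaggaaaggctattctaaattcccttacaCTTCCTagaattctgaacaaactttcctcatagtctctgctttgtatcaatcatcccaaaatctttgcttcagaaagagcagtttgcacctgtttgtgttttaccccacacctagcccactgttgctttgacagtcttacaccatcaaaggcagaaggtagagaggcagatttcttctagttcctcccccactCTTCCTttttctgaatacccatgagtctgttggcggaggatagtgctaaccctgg
Cd3g: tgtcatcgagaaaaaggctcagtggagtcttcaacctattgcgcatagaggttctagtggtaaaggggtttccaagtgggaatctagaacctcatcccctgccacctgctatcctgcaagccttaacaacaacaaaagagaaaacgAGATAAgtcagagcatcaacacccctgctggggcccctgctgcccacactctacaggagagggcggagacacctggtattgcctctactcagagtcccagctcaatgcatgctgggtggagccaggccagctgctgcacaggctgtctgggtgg
Cd3e: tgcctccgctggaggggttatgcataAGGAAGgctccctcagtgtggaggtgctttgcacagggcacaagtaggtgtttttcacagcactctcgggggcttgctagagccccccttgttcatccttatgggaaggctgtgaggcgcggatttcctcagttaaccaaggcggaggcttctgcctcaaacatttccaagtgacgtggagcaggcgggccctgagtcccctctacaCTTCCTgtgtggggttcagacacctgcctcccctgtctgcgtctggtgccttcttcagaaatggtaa
The letters AGGAAG occurred in 2 places each in Cd3d and Cd3e and in no place in Cd3g, and AGATAA in 1 place, in Cd3g. The E-box CACGTG, the letters bound by MYC with MAX, and the RUNX-type letters TGTGGT were in none of the 3 windows. Over all 27025 promoter windows of this length, 35.1% held AGGAAG, 11.4% AGATAA, 7.24% CACGTG and 16.9% TGTGGT. Among genes with a RefSeq window, AGGAAG was present in 35.2% of the 614 higher in AUL and 36.4% of the 675 lower in AUL, against 34.2% of all 6452 members with a window. AGATAA was present in 7.66% of those higher and 6.67% of those lower, against 6.37% of members. CACGTG was present in 7.00% of those higher and 9.93% of those lower, against 10.4% of members, and TGTGGT in 14.5% and 15.1%, against 13.1%. These matches are letters only and no binding was measured.

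In AUL, 932 genes were higher than in T-ALL (9.62% of the 9693) and 1101 were lower (11.4%), so that 2033 genes (21.0%) differed at least 2-fold. The median difference was -0.11, with a lower quartile of -0.53 and an upper quartile of 0.32. The share that differed was smaller among well expressed genes: it was 14.4% of the 4159 genes whose higher FPKM was 20 or more. It was 13.6% of the 8022 genes that reached 1 in both. Under the same rule 27.6% of genes differed between AUL and B-ALL, 41.1% between AUL and AML, 29.3% between T-ALL and B-ALL and 38.1% between T-ALL and AML. These pairs share libraries, and each is only 1 library against 1 library.

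**Figure D1:**
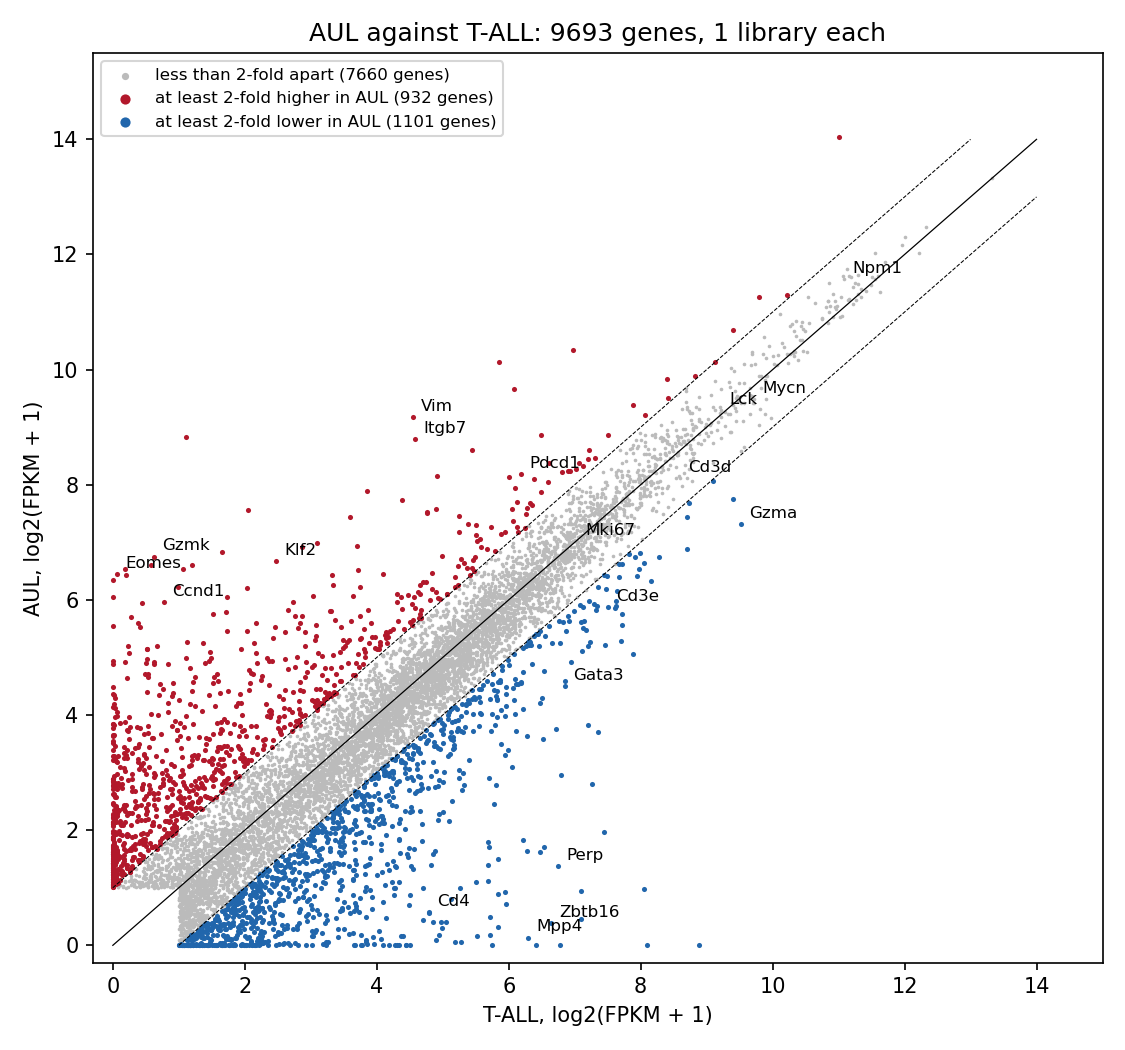
Each of the 9693 genes is a point at its log2(FPKM + 1) in T-ALL (horizontal axis) and in AUL (vertical axis), 1 library each; the solid line marks equal values and the dashed lines 2-fold differences. The 932 genes higher in AUL (red) and the 1101 lower in AUL (blue) flank a dense diagonal on which Mycn, Lck, Mki67 and Npm1 lie.

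Genes of the receptor complex itself were largely shared. Cd3d had 276 FPKM in AUL and 385 in T-ALL, Cd3g had 183 in AUL and 213 in T-ALL, and both were under 2-fold apart. Cd3e, the gene of the antigen used for sorting, had 57.4 FPKM in AUL and 180.1 in T-ALL, and the ratio of T-ALL to AUL was 3.14 (interval 2.998 to 3.28). Cd3e was thus lower in the CD3-negative library but far from absent, and in normal T cells it was at 221. Cd247, which carries the signal of the receptor, had 49.2 FPKM in AUL and 58.4 in T-ALL. Of the 17 receptor complex and adaptor genes, 1 was higher in AUL (5.88%, against 9.62% of all genes), 3 were lower (17.6%, against 11.4%) and 13 were neither, with a median difference of -0.24 against -0.11 for all genes. The adaptor Grap2 was the higher one, at 65.3 FPKM in AUL and 22.6 in T-ALL. Themis, needed for selection of developing T cells, was lower, at 2.06 FPKM in AUL and 19.5 in T-ALL. The scaffold Lcp2 was lower as well, at 62.2 in AUL and 147.9 in T-ALL.

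Of 18 signalling enzymes behind the receptor, 4 were higher in AUL (22.2%, against 9.62% of all genes), 1 was lower and 13 were neither. Lck had 626 FPKM in AUL and 596 in T-ALL, close to the 610.0 of normal T cells. Zap70 had 247 FPKM in AUL and 305 in T-ALL. The Tec-family kinase Txk stood apart, at 28.6 FPKM in AUL and 0.787 in T-ALL. Its FPKM ratio was 36.4 (interval 29.7 to 44.9), and normal T cells held 46.0. The phosphatase genes Ptprc (CD45) and Ptpn22 were higher in AUL, and Ptpn7 was lower. Ptprc had 466 FPKM in AUL and 181 in T-ALL.

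Of 12 surface molecules of T cells, 1 was higher in AUL (8.33%, against 9.62% of all genes) and 5 were lower (41.7%, against 11.4%), with a median of -0.33. Cd7, an early T and NK cell antigen, was the higher one, at 35.6 FPKM in AUL and 0.177 in T-ALL. Slamf6, a homophilic adhesion receptor, had 2.13 FPKM in AUL and 76.5 in T-ALL. The neighbouring genes Cd5 and Cd6, which code for related scavenger-type receptors that temper T-cell signals, were both lower in AUL. Cd5 had 52.0 FPKM in AUL and 117.9 in T-ALL, and Cd6 had 35.9 in AUL and 146 in T-ALL. The costimulatory receptor Cd28 had 37.3 FPKM in AUL and 108 in T-ALL. Thy1, the general T-cell antigen of mice, was under 2-fold apart, at 719 FPKM in AUL and 957 in T-ALL. The coreceptors were at low levels and on opposite sides. Cd4 had 0.495 FPKM in AUL and 26.8 in T-ALL, and Cd8a had 5.55 in AUL (504 fragments) and 0 in T-ALL. Normal T cells held 75.3 of Cd4 and 238 of Cd8a, so both leukaemias were below normal T cells for both coreceptors. Cd8b1 was under 1 FPKM in both leukaemias, as were Rag1, Rag2 and Dntt, the genes of receptor gene recombination.

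The receptor segments set the libraries apart most sharply. In AUL, Trav21-dv12 held 453 FPKM, against 1.16 in T-ALL. It took 5519 of the 5664 fragments on the 70 alpha V segments listed, or 97.4% (Wilson interval 97.0% to 97.8%). Its symbol also names it as a delta V segment (dv12), and segments with such double names were counted here as alpha. Whether its transcripts belong to alpha or delta chains was not tested. In T-ALL, Trbv12-1 took all 7956 fragments on the 22 beta V segments listed (Wilson interval from 99.95%), whereas AUL had 7 fragments on these 22 segments and none on Trbv12-1. Trdv1 had 272 FPKM in T-ALL, with all 3945 fragments on the 4 delta V segments with Trdv names, and 0 in AUL. Gamma V segments were present in both leukaemias, and 2 of the 6 listed were above 1 FPKM in each. Trgv2 had 46.1 FPKM in AUL and 209 in T-ALL. Gm16602, listed as a V gene of the gamma locus, had 114.7 FPKM in AUL and 66.5 in T-ALL, and took 65.5% of the gamma V fragments in AUL (Wilson interval 63.5% to 67.4%) and 19.5% in T-ALL (18.5% to 20.6%). Outside the gamma locus, the leading V segments of the leukaemias differed, with Trav21-dv12 in AUL and Trbv12-1 and Trdv1 in T-ALL, while normal T cells reached 1 FPKM on 62 of the 70 alpha and 21 of the 22 beta V segments. The B-ALL library held lower amounts of the T-ALL segments, with 21.0 FPKM of Trbv12-1 and 58.9 of Trdv1. It also held 41.3 FPKM of Trbv2, which was at 0 in AUL and in T-ALL. The AML library held 11.2 of Trav21-dv12. Whether these libraries share cells was not tested.

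The constant segments were also unequal. Trdc, the constant part of the delta chain, had 65.2 FPKM in AUL from 8528 fragments and 0 in T-ALL, so it was at least 3632-fold higher in AUL when 3 fragments are taken as the floor of the T-ALL library. Part of Trdc overlaps Trdv5, which had 16.6 FPKM in AUL and 0 in T-ALL. Trac, the constant part of the alpha chain, had 98.6 FPKM in AUL and 264 in T-ALL. The beta constant segments were under 2-fold apart: Trbc1 had 392 in AUL and 434 in T-ALL, and Trbc2 had 423 in AUL and 549 in T-ALL. Of the 4 gamma constant segments, Tcrg-C2 had 79.0 FPKM in AUL and 285 in T-ALL, and Tcrg-C4 had 134 in AUL and 198 in T-ALL. Tcrg-C1 and Tcrg-C3 were low, at 0.128 and 0.304 in AUL and 1.03 and 0.515 in T-ALL. AUL therefore transcribed beta constant segments with almost no listed beta V segment.

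The beta J segments of the second cluster are shown in genome order, because within 1103 bases the segments change from near absent in AUL to equal in both leukaemias. All 7 lie on the plus strand of chromosome 6, from chr6:41542754-41542803 (Trbj2-1) to chr6:41543810-41543856 (Trbj2-7), in the mm10 build, with the sequences from GENCODE vM21 transcripts. A J segment codes for the end of the variable domain, and capitals mark the codons TTN, GGN, NNN and GGN in a row, searched on the coding strand only, which code for the Phe-Gly-X-Gly turn of that domain.
Trbj2-1: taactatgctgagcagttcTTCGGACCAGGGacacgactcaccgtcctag
Trbj2-2: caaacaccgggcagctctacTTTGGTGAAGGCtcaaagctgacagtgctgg
Trbj2-3: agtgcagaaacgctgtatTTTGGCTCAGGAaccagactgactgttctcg
Trbj2-4: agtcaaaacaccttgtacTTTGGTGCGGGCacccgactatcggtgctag
Trbj2-5: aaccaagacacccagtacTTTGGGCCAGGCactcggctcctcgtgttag
Trbj2-6: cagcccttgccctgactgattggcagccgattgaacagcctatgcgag
Trbj2-7: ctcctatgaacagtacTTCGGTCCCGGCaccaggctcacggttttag
Trbj2-6 has no match, and GENCODE calls it a pseudogene. Among all 80 T-cell receptor J segments of that annotation, 59 (73.8%) hold these letters. In AUL, Trbj2-1, Trbj2-3 and Trbj2-4 had 0 FPKM, Trbj2-2 had 2.90 and Trbj2-5 had 1.81. In T-ALL the same 5 segments had between 20.8 (Trbj2-4) and 174 (Trbj2-2). Every one of the 5 was lower in AUL, as was Trbd2 just before them, at 0 in AUL and 11.6 in T-ALL. The next 2 segments were near equal. Trbj2-6 had 423 FPKM in AUL and 382 in T-ALL, and Trbj2-7 had 371 in AUL and 444 in T-ALL. J segments are shorter than a sequenced fragment, and the estimated fragments behind a value on them were from 0 to 902.

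The alpha J segments, which follow the delta genes on chromosome 14, divided at a position too. Of the 40 listed, 36 were lower in AUL and 3 were higher, with a median FPKM of 2.40 in AUL and 14 in T-ALL. The 2 segments nearest the delta genes, Traj61 and Traj59, had 3.28 FPKM each in AUL and 0 in T-ALL, on 8 and 7 fragments in AUL. Traj58, the next, was neither, at 3.28 in AUL and 4.04 in T-ALL. From Traj57 on, all listed segments were lower in AUL except Traj49, which had 14.1 in AUL and 6.07 in T-ALL. The delta J segments before Trdc had signal in AUL and none in T-ALL: Trdj1 had 6.38 FPKM in AUL and 0 in T-ALL, and Trdj2 had 21.5 in AUL and 0 in T-ALL. The run of segments with signal in AUL and 0 in T-ALL therefore spanned Trdj1, Trdj2, Trdc, Trdv5, Traj61 and Traj59. What these patterns mean for the rearranged genes was not tested, since no DNA was sequenced.

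**Figure D2:**
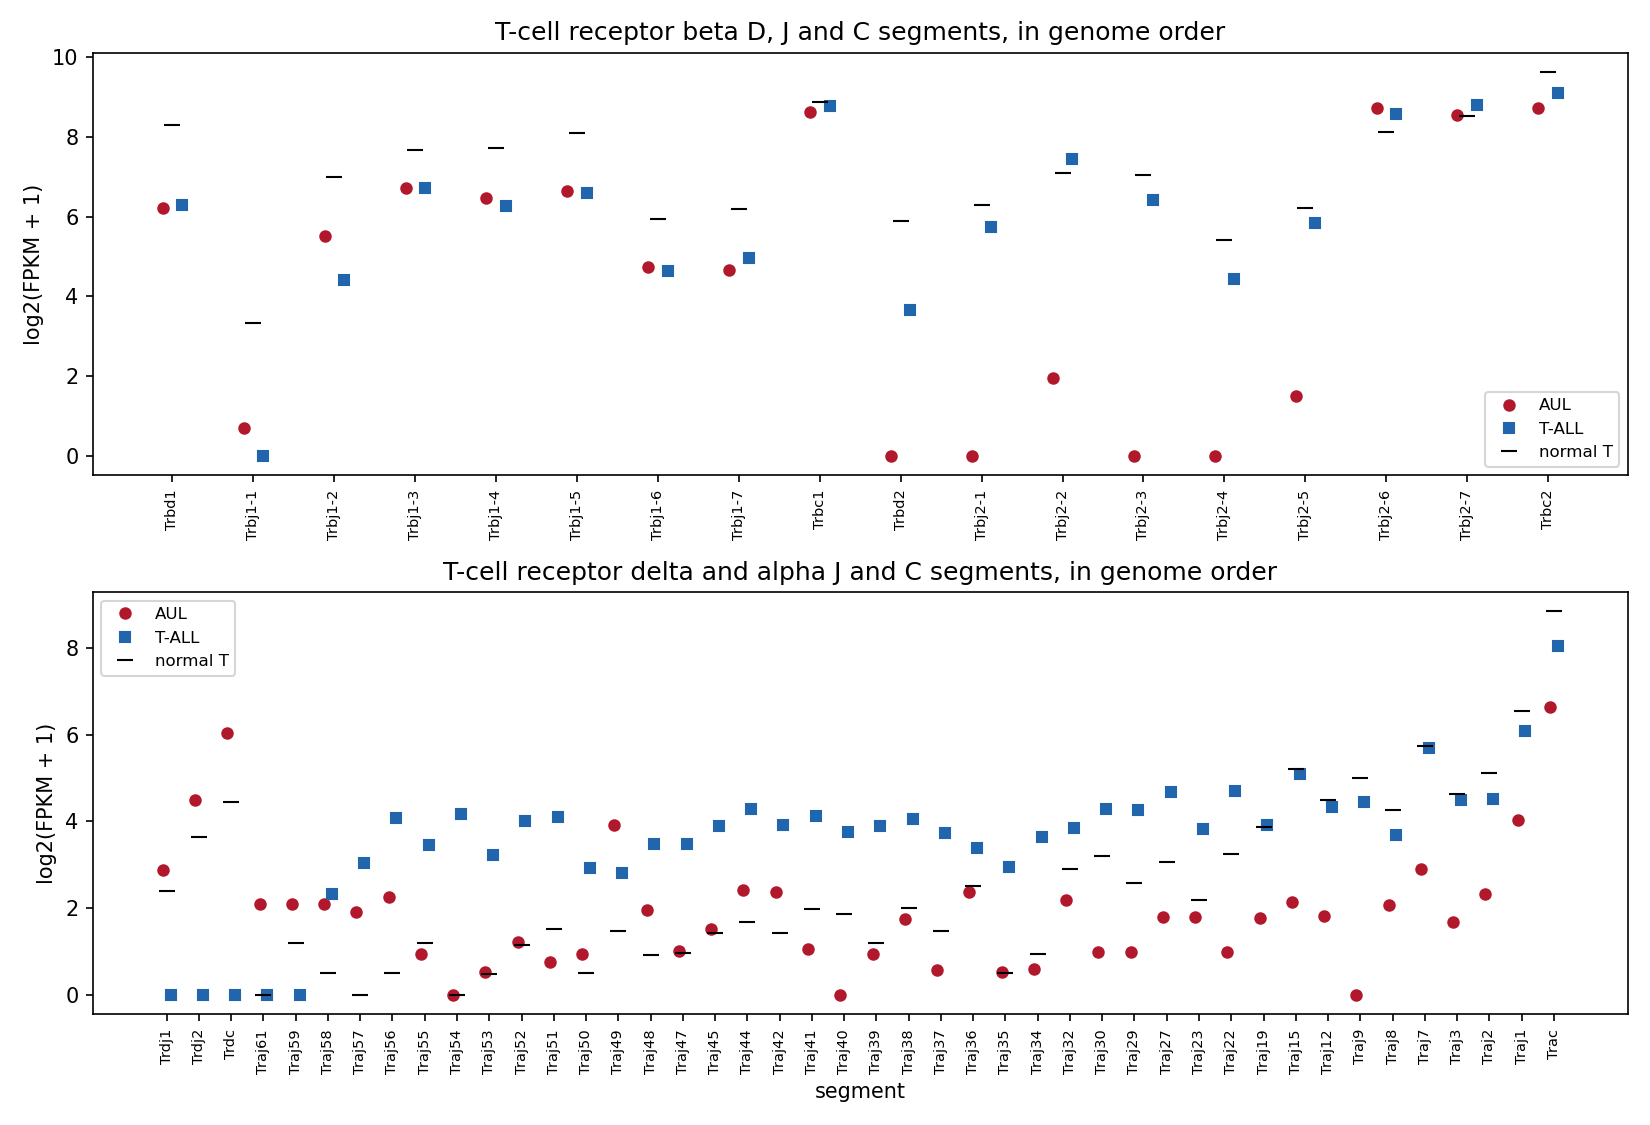
Each position is a segment in genome order, beta D, J and C segments above and delta and alpha J and C segments below, with log2(FPKM + 1) on the vertical axis for AUL (red circles), T-ALL (blue squares) and normal T cells (black dashes), 1 library each. Trbd2 and Trbj2-1 to Trbj2-5 are at or near 0 in AUL and present in T-ALL, Trdj1 to Traj59 are at 0 in T-ALL and present in AUL, and most alpha J segments are lower in AUL.

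Of 25 transcription factors of the T lineage, 6 were higher in AUL (24%, against 9.62% of all genes), 4 were lower (16%, against 11.4%) and 15 were neither, with a median of 0.18. Among factors of T-cell commitment, Tcf7 and Bcl11b were under 2-fold apart, while Gata3, given below, was lower in AUL. Tcf7 had 523 FPKM in AUL and 882 in T-ALL, and Bcl11b had 35.2 in AUL and 45.5 in T-ALL. Eomes, a T-box factor of memory CD8 T cells and NK cells, had 86.7 FPKM in AUL and 0.043 in T-ALL (5 fragments). Its FPKM ratio was 2016 (interval 864 to 6211), and normal T cells held 46.6. Runx3, which acts in cytotoxic T cells, was higher as well, at 165 in AUL and 65.7 in T-ALL. Sox4, Bach2, Foxo1 and Tox2 made up the rest of the higher group, with Sox4 at 40.2 in AUL and 7.48 in T-ALL. On the other side, Zbtb16, the factor PLZF of innate-like T cells, had 0.310 FPKM in AUL and 98.4 in T-ALL. Its ratio of T-ALL to AUL was 317 (interval 233 to 444), and normal T cells held only 3.98. Gata3 had 21.7 FPKM in AUL and 114.8 in T-ALL, and Zbtb7b, which directs the CD4 fate, had 11.4 in AUL and 76.9 in T-ALL. Rora was lower too, at 0.149 in AUL and 3.71 in T-ALL.

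Genes of innate-like and gamma-delta T cells and of early thymic cells pointed the same way only in part. Of the 4 gamma-delta and innate genes that were members, 3 were lower in AUL (75%, against 11.4% of all genes). These were Zbtb16, Maf and Etv5, and Id3 was neither. Maf had 0.358 FPKM in AUL and 8.53 in T-ALL. Of 13 early thymic and innate lymphoid genes, 4 were higher in AUL (30.8%, against 9.62% of all genes) and 5 were lower (38.5%, against 11.4%). Gfi1, a repressor that limits the growth of progenitors, had 32.5 FPKM in AUL and 236 in T-ALL. Hhex and Mef2c, which are active in early thymic progenitors, were higher in AUL, Hhex at 11.2 against 1.66 in T-ALL and Mef2c at 7.29 against 0.388 in T-ALL. Few stem and progenitor genes were members at all: 6 of 22. Of these 6, Ly6a was higher in AUL (16.7%, against 9.62% of all genes) and Nfe2 was lower (16.7%, against 11.4%). Nfe2, an erythroid and megakaryocytic factor, had 5.97 FPKM in AUL and 153 in T-ALL. Kit and Cd34 were below 1 FPKM in both leukaemias. Among genes of transcription factors that are activated in T-ALL in people, 5 were members. Of these, 3 were higher in AUL (60%, against 9.62% of all genes) and 1 was lower (20%, against 11.4%). Lmo1, on the higher side, had 47.2 FPKM in AUL and 0.304 in T-ALL, with a ratio of 155 (interval 90.4 to 292). The gene Notch1, often mutated in T-ALL in people, was under 2-fold apart at 47.5 in AUL and 59.4 in T-ALL. Of the 10 Notch pathway members, 3 were higher in AUL (30%, against 9.62% of all genes), among them Notch3 and the target Hes1. In the same list 2 were lower (20%, against 11.4%). Hes1 had 8.56 FPKM in AUL and 0.421 in T-ALL.

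Of 16 cytotoxic and NK-cell genes, 9 were higher in AUL (56.2%, against 9.62% of all genes) and 2 were lower (12.5%, against 11.4%). The median difference of 1.17 depended on the pseudocount, with 0.408 at a pseudocount of 5 and 2.195 at 0.1. The summed FPKM of the list ran the other way, at 647 in AUL and 888 in T-ALL, where Gzma held most of the T-ALL sum. The granzyme genes were divided. Gzmk had 106.7 FPKM in AUL and 0.539 in T-ALL, and Gzmm had 73.6 in AUL and 0.989 in T-ALL. Gzma, by contrast, had 159 in AUL and 732 in T-ALL, and normal T cells held 97.2. Nkg7, a cytotoxic granule protein gene, had 156 FPKM in AUL and 44.4 in T-ALL. The NK receptor genes followed no single direction: Klrc1 had 13.3 FPKM in AUL and 0 in T-ALL, whereas Klrb1c had 0.388 in AUL and 9.46 in T-ALL. Perforin (Prf1) was low in both, at 1.22 in AUL and 0.011 in T-ALL. Ifng, the gene of interferon gamma, had 6.03 in AUL and 0.690 in T-ALL. In bulk libraries, fewer cells of a type and less RNA per cell cannot be told apart. Of the 8 NK cell markers only Eomes, Klrb1c and Klrd1 were members, and 2 of the 8 were at 0 in AUL and 4 in T-ALL.

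Of 24 cytokine receptor genes, 7 were higher in AUL (29.2%, against 9.62% of all genes) and 5 were lower (20.8%, against 11.4%). The interleukin 18 receptor genes were higher, with Il18rap at 27.3 FPKM in AUL and 1.26 in T-ALL, and Il18r1 at 6.89 in AUL and 0.220 in T-ALL. Ifngr1, a chain of the interferon gamma receptor, had 390 FPKM in AUL and 42.6 in T-ALL, and Ifngr2, its partner, was lower at 1.42 in AUL and 5.57 in T-ALL. Stat4, which carries the interleukin 12 signal, had 24.01 in AUL and 0.165 in T-ALL. Il12rb1 went the other way, at 21.1 in AUL and 66.3 in T-ALL. Il17rb, part of the interleukin 25 receptor, had 0.380 FPKM in AUL and 136 in T-ALL, with a ratio of T-ALL to AUL of 357 (interval 235 to 547). Il9r, the interleukin 9 receptor, had 0.132 in AUL and 51.4 in T-ALL. Il7r, the receptor of the main survival factor of T cells, was low in both, at 0.129 in AUL and 1.87 in T-ALL, against 111 in normal T cells.

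Of 15 chemokine receptor and homing genes, 5 were higher in AUL (33.3%, against 9.62% of all genes) and 3 were lower (20%, against 11.4%). Their median was 0.67, or 0.415 at a pseudocount of 5. Klf2 had 101 FPKM in AUL and 4.57 in T-ALL, and this factor drives S1pr1 in resting T cells. S1pr1, the receptor for exit from lymphoid tissue, had 12.3 in AUL and 0.973 in T-ALL. Normal T cells were above both, with 463 of Klf2 and 96.8 of S1pr1. Itgb7, the beta chain of gut-homing integrins, had 443 FPKM in AUL and 22.8 in T-ALL, and 422 in normal T cells. Ccr4 went the other way, at 2.27 in AUL and 50.8 in T-ALL. Activation and inhibitory receptors gave 6 higher of 12 (50%, against 9.62% of all genes) and none lower. Pdcd1 (PD-1) had 289 FPKM in AUL and 72.1 in T-ALL, against 5.35 in normal T cells. Tigit had 37.2 in AUL and 1.59 in T-ALL, and Cd69 had 13.4 in AUL and 1.32 in T-ALL.

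Immediate early genes, which respond within minutes to receptor signals and to cell handling, were all higher in AUL where they differed at least 2-fold. Of 22, 10 were higher in AUL (45.5%, against 9.62% of all genes) and none was lower, with a median of 0.88. Fos had 125.9 FPKM in AUL and 7.55 in T-ALL, and Nr4a1 had 181 in AUL and 26.3 in T-ALL. Egr1 was near equal, at 13.98 in AUL and 13.1 in T-ALL. All 4 normal libraries were above both leukaemias for Fos, with 859 in normal T cells. NF-kB targets and regulators gave 7 higher of 17 (41.2%) and none lower. Their median was 0.86, or 0.567 at a pseudocount of 5. The inhibitor genes Tnfaip3 and Nfkbia were among them, Tnfaip3 at 42.4 FPKM in AUL and 6.56 in T-ALL. The handling and sort time of the libraries are not given, and their part in these lists was not tested.

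**Figure D3:**
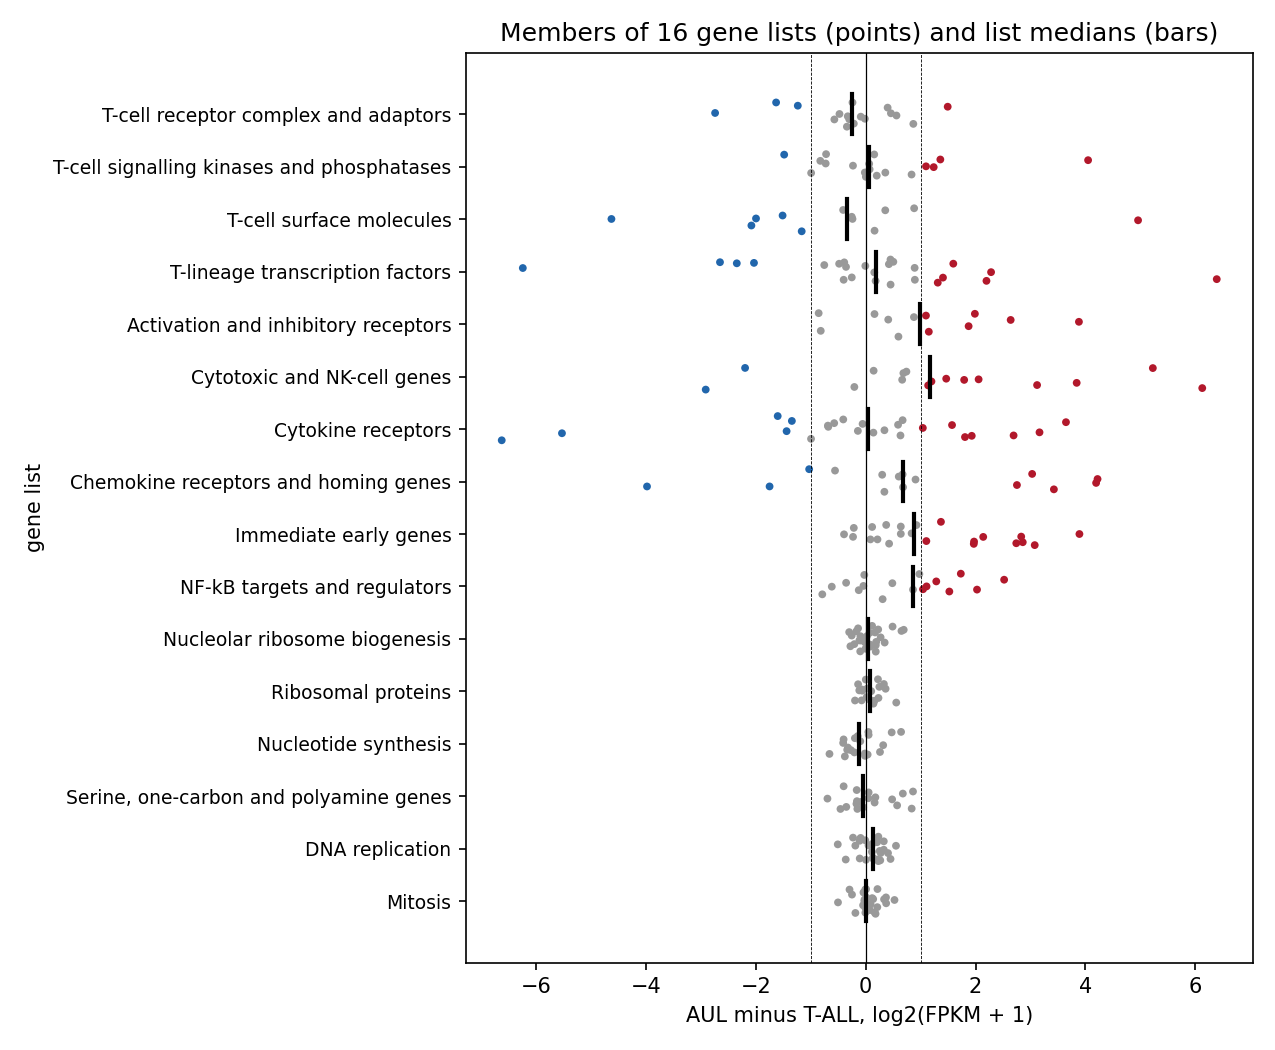
Points are the members of 16 gene lists, placed by AUL minus T-ALL in log2(FPKM + 1), with vertical scatter added for legibility; black bars are list medians, dashed lines mark 2-fold, and red and blue points are higher and lower in AUL. T-cell lists and the cytotoxic list spread widely to both sides. The medians of the activation, cytotoxic, immediate early and NF-kB lists lie to the right of 0. All points of the lower 6 growth lists stay within 2-fold.

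The growth lists did not separate the leukaemias. Over 140 members of 6 lists (nucleolar ribosome biogenesis, ribosomal proteins, nucleotide synthesis, serine, one-carbon and polyamine genes, DNA replication and mitosis), 0 were at least 2-fold higher and 0 lower, where 21.0% of all genes were. The share of all genes was smaller, at 14.4%, among those whose higher FPKM was 20 or more. List medians lay between -0.12 (nucleotide synthesis) and 0.13 (DNA replication), and the signs of those nearest 0 depend on the scaling. Npm1, a nucleolar chaperone, had 3045 FPKM in AUL and 2170.1 in T-ALL, and Ncl had 1095 in AUL and 1037 in T-ALL. Mki67, the proliferation marker, had 128.9 in AUL and 129.6 in T-ALL. Rrm2, which supplies deoxynucleotides, had 233 in AUL and 149 in T-ALL. Of 8 MYC network genes, Mxd1, a MAX partner that opposes MYC, was the 1 higher in AUL, at 24.98 FPKM against 7.97 in T-ALL. Of the 7 cyclin and kinase genes of G1, the phase before DNA replication, 5 were under 2-fold apart, Ccnd2 and Ccnd3 among them. The cyclin gene Ccnd1 was higher, at 61.3 FPKM in AUL and 0.708 in T-ALL, and the kinase gene Cdk6 was lower, at 37.6 in AUL and 149 in T-ALL. Of 22 cell-cycle inhibitor and p53 target genes, 4 were higher (18.2%, against 9.62% of all genes) and 2 were lower (9.09%, against 11.4%). Cdkn1a, the inhibitor p21, had 13.5 FPKM in AUL and 1.03 in T-ALL, and Perp, a p53 target of cell adhesion, had 1.59 in AUL and 106.4 in T-ALL. Among 11 BCL2 family genes, 1 was higher in AUL (9.09%, against 9.62% of all genes) and 2 were lower (18.2%, against 11.4%), with a median of -0.47. Bcl2l11, the death inducer BIM, was the higher one, at 38.3 FPKM in AUL and 10.3 in T-ALL. Bcl2 itself was low in both and lower in AUL, at 0.554 in AUL and 2.51 in T-ALL. Glycolysis genes gave 2 higher (9.52%, against 9.62% of all genes) and 4 lower (19%, against 11.4%) of 21. Gapdh had 37.98 FPKM in AUL and 207 in T-ALL, with 31.1 in B-ALL and 319 in AML. It has many processed pseudogenes that could take its reads, and their part was not tested.

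Antigen presentation genes fall into the classes I and II. Of 16 class I genes none was at least 2-fold apart, with H2-K1 at 691 FPKM in AUL and 410.2 in T-ALL. Of 9 class II genes 5 were lower in AUL (55.6%, against 11.4% of all genes) and 1 was higher. Their median was -1.03, or -0.425 at a pseudocount of 5 and -1.551 at 0.1. H2-Ab1 had 6.74 FPKM in AUL and 109.4 in T-ALL, and H2-DMa, which loads peptides, had 10.9 in AUL and 90.3 in T-ALL. Cd74, the class II chaperone, was low in both at 3.86 in AUL and 6.14 in T-ALL, and so were H2-Aa and H2-Eb1. The class II list summed to 36.8 FPKM in AUL and 228 in T-ALL, against 8772 in normal B cells. B-cell markers were low: 6 of 12 were members, with Cd79a at 1.87 FPKM in AUL and 2.65 in T-ALL, and the list summed to 55.2 in AUL and 18.0 in T-ALL, against 7148 in normal B cells. Cd22, at 25.3 FPKM in AUL and 0.401 in T-ALL, and Pou2af1, at 25.2 in AUL and 9.46 in T-ALL, made up most of the AUL sum. Interferon response genes gave 1 higher (4.55%, against 9.62% of all genes) and 2 lower (9.09%, against 11.4%) of 22. Of 5 plasma cell markers 1 was lower in AUL (20%, against 11.4% of all genes) and 0 were higher. The lower one was Jchain, at 2.98 FPKM in AUL and 10.5 in T-ALL. Immunoglobulin segments went both ways, with Igkc at 22.2 FPKM in AUL and 68.1 in T-ALL and Ighj1 at 34.6 in AUL and 0.437 in T-ALL. The part of plasma cell genes and immunoglobulin segments in the class II result was not tested.

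Erythroid markers were higher in AUL in 6 of 8 members (75%, against 9.62% of all genes), with Hbb-bs at 86.1 FPKM in AUL and 16.2 in T-ALL and a list sum of 190 in AUL and 39.5 in T-ALL. Hbb-bs and Hbb-bt, and likewise Hba-a1 and Hba-a2, are near-identical copies that can share reads. Car2, also in that list, had 35.9 FPKM in AUL and 0.597 in T-ALL. Monocyte markers gave 1 higher (11.1%, against 9.62% of all genes) and 1 lower (11.1%, against 11.4%) of 9. Ly6c2 had 175 FPKM in AUL and 37.1 in T-ALL, and Lyz2 had 108 in AUL and 116 in T-ALL. Xist, the RNA of the inactive X chromosome, had 117.6 FPKM in AUL and 414 in T-ALL. Y-linked genes were not analysed here, and whether the libraries differ in sex was not tested.

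The largest differences among genes whose higher FPKM was 20 or more were taken by size, 15 on each side, leaving aside receptor segments and predicted genes. On the higher side Eomes was followed by Itgad, the alpha D integrin chain, at 92.4 FPKM in AUL and 0.134 in T-ALL. Its neighbour Itgax had 7.76 in AUL and 0.346 in T-ALL. Alb, the gene of serum albumin, had 80.0 in AUL and 0 in T-ALL, but 31.2 to 34.6 in the 4 normal libraries. Ret, a receptor tyrosine kinase of nerve and early blood cells, had 85.6 FPKM in AUL and 0.153 in T-ALL, with a ratio of 558 (interval 397 to 811). Nsg2 had 96.7 FPKM in AUL and 0.486 in T-ALL, and Cd55, which protects cells from complement, had 60.3 in AUL and 0.358 in T-ALL. Both were also present in normal T cells, at 152 for Nsg2 and 67.3 for Cd55. Rn7sk, a short RNA without a poly(A) tail, had 187 in AUL and 3.15 in T-ALL. Beside it, 20 of the 37 histone genes named Hist that were members were higher in AUL and 0 were lower. Over all genes, 9.62% were higher and 11.4% lower. The histone median was 1.08, and transcripts of these genes mostly lack a poly(A) tail. The efficiency of poly(A) selection was not given and its part was not tested. Plek, Trpm1, Itm2a and Endou, with Gzmk, Gzmm, Lmo1 and Ccnd1 described above, completed the 15. Of the 4 leukaemias AUL was highest for 14 of the 15, a number that choosing genes high in AUL favours, and the exception was Ccnd1, which reached 89.0 FPKM in B-ALL. T-ALL was highest for all 15 genes on the lower side, which the choice favours likewise.

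On the lower side Klra1, an NK receptor of the Ly49 family, had 0 fragments in AUL and 108 FPKM in T-ALL from 5021 fragments, and was at least 1310-fold lower in AUL with 3 fragments as the floor of the AUL library. The Ly49 genes are similar to each other, so reads can be split among them. Chdh, a choline dehydrogenase gene, had 0.914 FPKM in AUL and 136 in T-ALL. Its gene starts 126 bases past that of Il17rb on chromosome 14 and runs away from it, and both were high in T-ALL. Mpp4, a scaffold gene known from photoreceptors, had 0.098 FPKM in AUL and 77.1 in T-ALL, with a ratio of T-ALL to AUL of 785 (interval 398 to 1819). The normal libraries held at most 0.196 FPKM of Mpp4. Mpp4 overlaps another gene, so its count is uncertain. Batf3, a factor of dendritic cells and activated T cells, had 0.040 FPKM in AUL and 37.9 in T-ALL. Slc22a3, B4galnt4, Ptpn3 and Emid1 were lower as well, and Art2b, a T-cell surface ADP-ribosyltransferase, had 0.401 FPKM in AUL and 51.6 in T-ALL. Fundc2 differed from the rest in that AUL stood alone: it had 0.652 FPKM in AUL and 61.3 in T-ALL, while the other 6 libraries held 10.8 to 45.5.

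**Figure D4:**
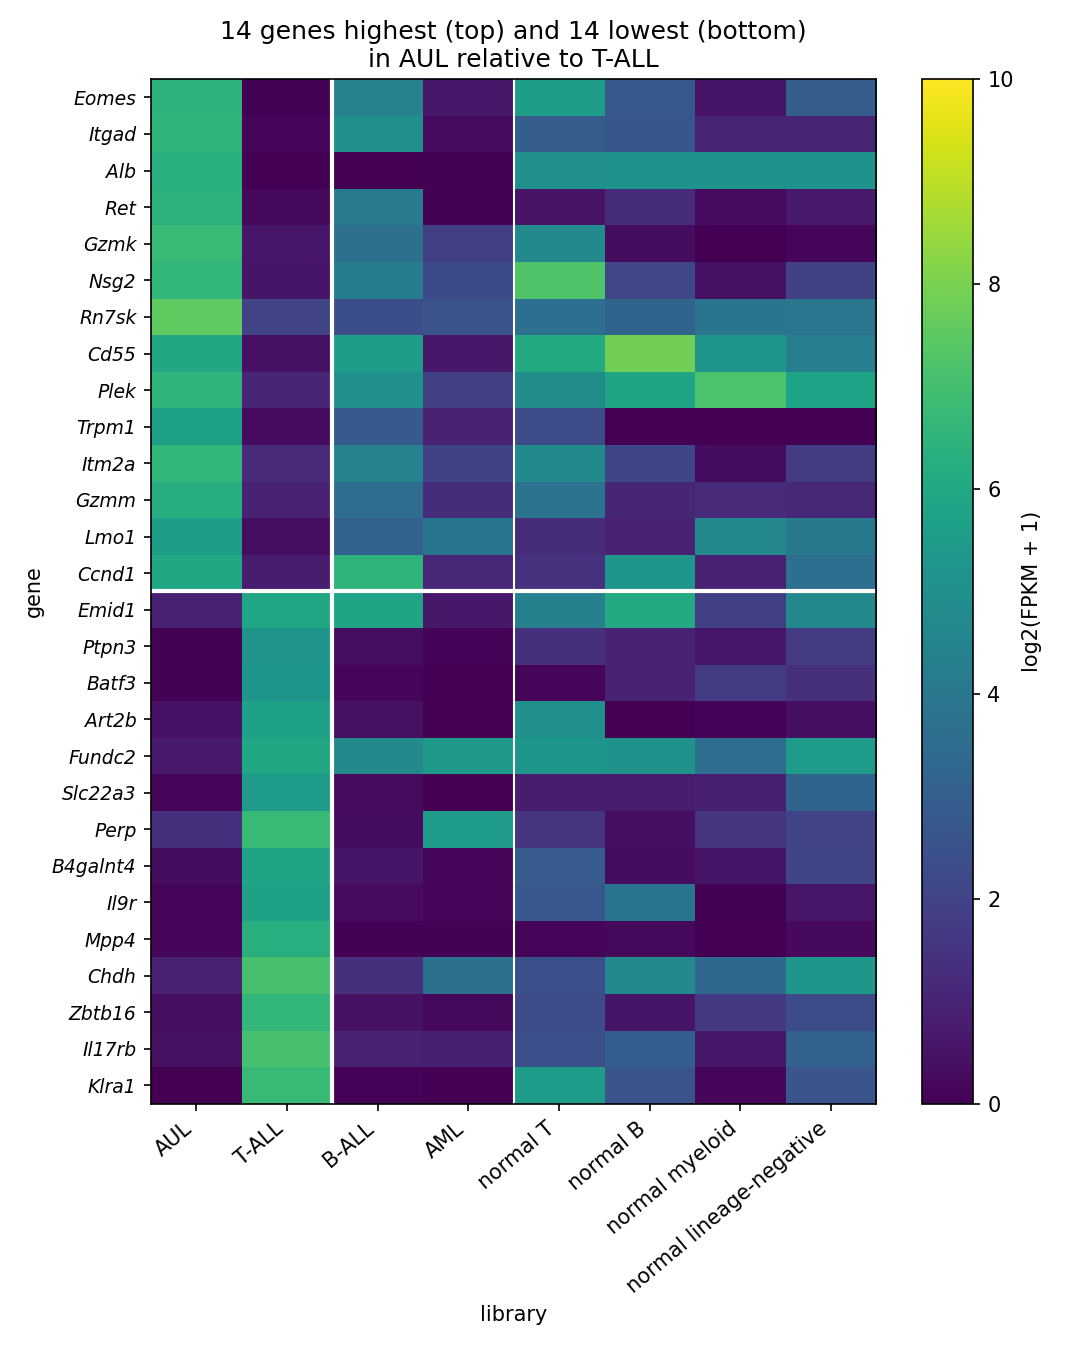
Rows are the 14 genes highest (top) and 14 lowest (bottom) in AUL relative to T-ALL at a higher FPKM of 20 or more, columns are the 8 libraries (1 each), and the colour is log2(FPKM + 1). Most genes of the upper block are also present in B-ALL below the AUL level, most genes of the lower block are high in T-ALL alone, and Alb is present in AUL and in all normal libraries.

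Neighbouring genes that differed in the same direction formed stretches. Leaving aside receptor segments, there were 30 stretches of at least 3 neighbouring members higher in AUL, with 111 genes, and 38 lower in AUL, with 132 genes. Members count as neighbours when no other member lies between them, so genes that were no members were passed over. Over all members 9.62% were higher and 11.4% lower, and how many stretches these shares alone would give was not computed. On chromosome 10, Tnfaip3 and Ifngr1 stood with the clone RP23-353K11.3 among the higher ones (chr10:19000910-19610229). Kinds of gene that lie in clusters, such as the Hist, Gimap and H2-DM genes, account for several stretches.

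By whole chromosome, the medians of chromosomes 12 and 15 were above those of the others. Among genes with a mean FPKM of at least 5 over the 2 libraries, the median difference was 0.45 over 285 genes on chromosome 15, where 78.9% lay above 0. It was 0.33 over 208 genes on chromosome 12, where 71.6% lay above 0. Over all 6480 such genes the median was -0.09 and 42.7% lay above 0, and the medians of the other 18 chromosomes lay between -0.20 and -0.01. The shift ran along the length of both chromosomes: in windows of 20 Mb the medians were 0.29 to 0.41 on chromosome 12 and 0.34 to 0.81 on chromosome 15. Set against the mean of B-ALL and AML, AUL had medians of 0.66 on chromosome 15 and 0.35 on chromosome 12, and T-ALL had 0.13 and 0.09. Chromosomes 16 and 19 departed from that mean in both leukaemias, with -0.45 in AUL and -0.34 in T-ALL on chromosome 16 and 0.29 in AUL and 0.42 in T-ALL on chromosome 19. Their medians of AUL minus T-ALL were -0.14 and -0.15. A departure in both can equally lie in the B-ALL or AML library, and which of the libraries it lies in was not tested. Genes of a chromosome are not independent replicates, and the number of chromosome copies was not measured. Mycn itself lies on chromosome 12 (chr12:12936096-12941914, minus strand), and Lgals1 and Itgb7 lie on chromosome 15.

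**Figure D5:**
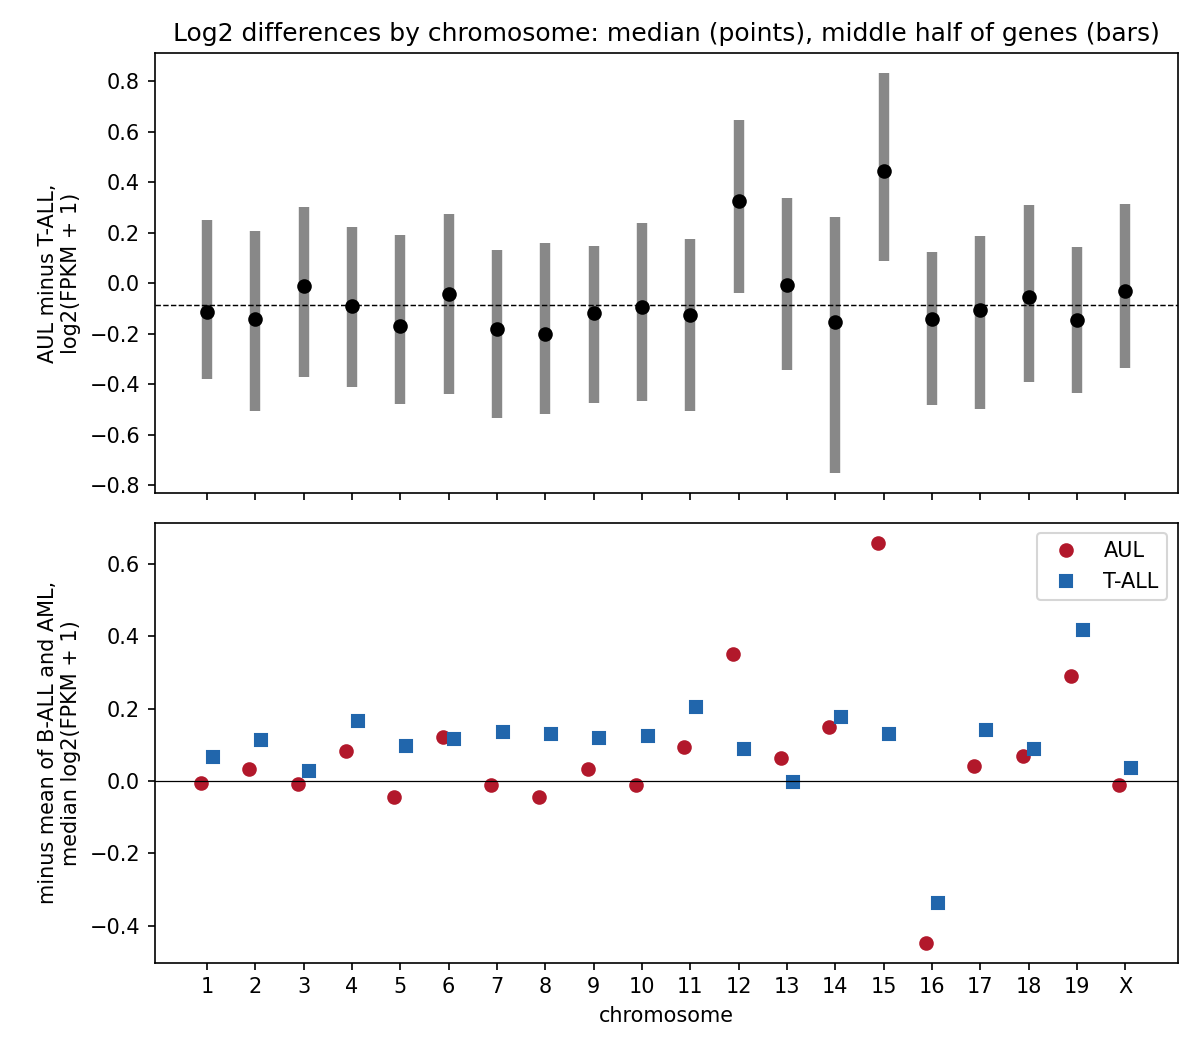
The upper panel shows, for each chromosome, the median (point) and the range from lower to upper quartile (bar) of AUL minus T-ALL in log2(FPKM + 1) over genes with a mean FPKM of at least 5, with the median of all genes as a dashed line; the lower panel shows the medians of AUL (circles) and T-ALL (squares) minus the mean of B-ALL and AML. Chromosomes 12 and 15 stand above the rest in the upper panel. Chromosomes 16 and 19 depart from the mean of B-ALL and AML in both leukaemias, which can also lie in the B-ALL or AML library.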

How the data were processed

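Poly(A) RNA from 8 libraries, 1 per group, was sequenced as paired ends, and reads were aligned to mm10, per the labels' protocols. STAR, HTSeq and edgeR are named in the submitters' processing notes, without versions or settings. The authors deposited FPKM for 16434 genes. The rule by which genes entered that table and the use of strand in counting are not given in the sources used here, so overlapping and antisense genes are uncertain. FPKM times mean transcript length (GENCODE vM21, 16380 genes) gave whole numbers of fragments (tolerance 0.02) at 1 common step in each library for 94.2% of values of single-transcript genes in AUL and in T-ALL, and for 67.9% and 69.5% of all values, which gave the library totals and approximate fragments.

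Differences used log2(FPKM + 1) with the deposited scaling (Python 3.11.15, pandas 2.3.3, numpy 2.4.6, scipy 1.17.1). The calling was tested on simulated data. Intervals and the floor of 3 fragments cover counting error only. The members and gene lists were chosen with earlier results of these data known. Named genes were the 15 largest differences each way at FPKM of at least 20, up to 6 members per list at FPKM of at least 5, all receptor complex, coreceptor and sex-linked genes, and the 10 highest V segments per library. A few genes are not reported here. Other list members are named for their value, and genes of no list were chosen after their values were seen. Alternatives were pseudocounts, scalings, filters, gene classes and thresholds. List genes not among the listed symbols, such as Tcf3, Ikzf1 and Ptcra, were not analysed here.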

Additional observations from a re-analysis of the deposited data

How the results depend on the processing

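The share of higher calls, 45.8%, stayed within 10 percentage points of that value. With a pseudocount of 5 the count of 2033 genes became 900 (449 higher, 451 lower), with FPKM of at least 5 it became 1325 (620 higher, 705 lower), with FPKM of at least 10 it became 941 (429 higher, 512 lower) and with a 4-fold threshold it became 639 (350 higher, 289 lower), each a stricter rule by construction. With a pseudocount of 0.1 the count was 2733, with median-ratio scaling 2000, with columns scaled to a sum of 1000000 2443, without receptor segments and predicted genes 1592, without genes that a normal non-T library held 4-fold above both leukaemias 1751, or above normal T cells 1723, and with the counting interval beyond 2-fold 2068. Scaling to 1000000 gave a median of all genes of -0.23, against -0.11 as deposited, and the shares of higher calls were 38.6% there and 51.2% with median-ratio scaling. Of 630 named genes and list members, 198 differed at least 2-fold, and none of these changed sign under the pseudocounts and scalings. A pseudocount of 5 took 62 of them below 2-fold. Among list medians, only those between -0.10 and 0.08 changed sign, ribosome biogenesis, ribosomal proteins and mitosis among them, under scaling to 1000000. Medians printed for the cytotoxic, chemokine, NF-kB and class II lists moved by over 1.5 times with a pseudocount of 5. No paired analysis was possible because the labels give 1 library per group and no shared replicate numbers. No replicate could be left out for the same reason.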

Other observations

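Genes that belong to no list were looked at after their values were seen. Among plasma protein genes other than Alb, Afp had 52.9 FPKM in AUL and 1.85 in T-ALL. Others were low: Ttr had 3.40 in AUL and 0 in T-ALL, and Fga, Fgb, Fgg, Serpina1a, Serpina1b and Serpina1e had between 1.34 and 2.60 in AUL and 0 in T-ALL. Afp was at 5.97 in normal T cells and below 1 in the other 5 libraries. Trf, another plasma protein gene, was equal at 2.39 in AUL and 2.32 in T-ALL.

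Vim, the intermediate filament gene of mesenchymal and blood cells, had 575 FPKM in AUL and 22.3 in T-ALL, and the other 6 libraries held 182 to 755, so that T-ALL stood alone. Lgals1, a galectin gene, had 1117 FPKM in AUL and 56.8 in T-ALL, with 32.5 in AML as the only lower value. Nmral1 had 0.236 in AUL and 30.9 in T-ALL, and no other library was below 7.13. The ribosomal RNAs of mitochondria were higher in AUL, mt-Rnr1 at 265 FPKM in AUL and 95.4 in T-ALL and mt-Rnr2 at 332 in AUL and 96.4 in T-ALL. Of the 15 genes of the mitochondrial genome, 2 were higher and 0 lower, with a median of 0.60, where 9.62% of all genes were higher and 11.4% lower. Rpph1, another RNA without a poly(A) tail, was equal at 208 FPKM in AUL and 207 in T-ALL, against 7.55 to 9.59 in the normal libraries. The predicted gene Gm23935, 57 bases long, had 16896 FPKM in AUL and 2047 in T-ALL, and values at so short a gene depend strongly on how fragments are counted.

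Of the 15 named genes highest in AUL, 13 had at least 10% of the AUL level in B-ALL. Of the 15 named genes lowest in AUL, 2 had at least 10% of the T-ALL level in B-ALL. The same shares over all genes were not computed, so these counts describe only the genes chosen by size.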
